A study of Mus musculus with 24 samples.

Results

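The 9 genes described here are transcription factors of the early forebrain: Lhx2, Fezf2, Emx2, Lhx5, Hesx1, Six3, Six6, Rax and Nkx2-1. They were 9 of 23119 genes listed in an expression table of mouse cells with and without a working Smchd1 gene, and each was found by its symbol. The set was selected on earlier results of these data, because Lhx2 and Fezf2 were higher in mutant cells. The differences between mutant and wild-type cells are therefore given for the 9 genes as a description, without a test. Changes between stages of differentiation were tested in wild-type cells, whose libraries also enter that contrast, for the members other than Lhx2 and Fezf2. For these 2 genes, and for all members in mutant cells, the changes are given without a test, because the choice used these values.

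The forebrain forms at the anterior end of the neural plate, where Wnt signals are kept low and a set of homeodomain and zinc finger factors comes on. Six3, Rax, Lhx2 and Six6 belong to the eye field and, with Hesx1, to the most anterior neural plate. Emx2 and Lhx2 pattern the cortex, Fezf2 acts in the rostral forebrain and later in cortical projection neurons, and Nkx2-1 marks the ventral forebrain, where Shh signals induce it. Wnt, FGF and retinoic acid signals drive the opposite, posterior identities, which are marked by Hox and Cdx genes.

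Poly(A) RNA was sequenced from JB4/EI7HZ2 cells, female mouse embryonic stem cells (mESCs) of mixed JF1 and B6 parentage, and from an SmcHD1-mutant (KO) line made from it by CRISPR–Cas9. SmcHD1 is a chromatin protein of the inactive X chromosome. Both lines carry drug-resistance genes on their X chromosomes and were kept in G418 and zeocin, which keep cells with both X chromosomes. They were sampled as mESCs grown with 2i and LIF, as cells at day 7 and day 9 of differentiation through embryoid bodies, and as neural stem cells (NSCs) grown with FGF2 and EGF. The NSCs were derived from mESCs by a separate protocol and do not descend from the day 9 cells. There were 3 replicates of each of the 8 groups, 24 libraries in all. Each genotype is represented by 1 line. The mutation and other differences between the lines therefore cannot be told apart. The study describes its replicates of the JB4/EI7HZ2 mESCs and the cells derived from them as independent biological experiments.

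Levels are the deposited FPKM, read numbers corrected for transcript length and for the size of the library, and differences are on the log2(FPKM + 1) scale, which understates the change of low genes. The values of low genes were whole multiples of the worth of 1 read, so reads could be counted back. The relative number of reads per library ran from 0.811 to 1.15, with the median library at 1. Smchd1 lay between 1.82 and 4.40 FPKM in the 12 KO libraries and between 12.96 and 26.41 FPKM in the 12 WT libraries, without overlap. The summed pluripotency markers fell with the labelled stages, and single markers of each list followed them unequally. The summed FPKM of 6 pluripotency markers lay between 2473 and 2979 in mESCs, between 279.0 and 434.7 in day 7 cells, between 57.7 and 121 in day 9 cells and between 5.72 and 12.6 in NSCs. Klf4 made up most of that sum in 5 of the 6 NSC libraries, all but WT replicate 1, and was higher there (4.10 to 11.1 FPKM) than at day 9 (1.36 to 3.15 FPKM). The sum of 6 neural progenitor markers was 399.0 to 473 in mESCs, 411 to 513 in day 7 cells, 1430 to 2001 in day 9 cells and 3488 to 6615 in NSCs. In mESCs Sox2, which pluripotent cells also express, made up most of that sum, while Sox1 went from at most 0.443 FPKM in mESCs to at least 33.1 FPKM at day 7. In NSCs Sox1 was back at 1.11 to 4.31 FPKM, and Fabp7 (2286 to 4998 FPKM) and Vim (901 to 1448 FPKM) made up most of the sum. The sum of the 3 neuron markers off the X chromosome, Tubb3, Elavl3 and Map2 (listed as Mtap2), was at most 64.7 in mESCs, 45.3 to 98.3 at day 7, 218 to 437 at day 9 and 138 to 176 in NSCs. In NSCs Map2 carried the sum (120 to 162 FPKM, against 15.3 to 26.1 FPKM at day 9), while Tubb3 was at most 21.6 and Elavl3 at most 5.82 FPKM. One WT library stood apart in NSCs, replicate 1, whose correlations with the other WT NSC libraries across genes were 0.955 and 0.964.

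The 9 genes fell into 2 ranges of level. Lhx2, Lhx5, Fezf2, Hesx1 and Emx2 had a mean of at least 1 FPKM over the 24 libraries and were among the 12105 genes tested, with 4.85, 3.43, 2.14, 1.78 and 1.71 FPKM. Over the 12 WT libraries alone Fezf2 and Emx2 had means of 0.835 and 0.421 FPKM, so these 2 genes passed the limit only through their KO libraries (3.45 and 3.01 FPKM). Emx2 was therefore tested between WT stages, like the 4 low genes, only in a fit with no limit on low values. Rax, Six3, Six6 and Nkx2-1 had means of 0.348, 0.319, 0.216 and 0.162 FPKM, fell below that limit and were not tested. Even the higher ones rested on few reads. The most reads of any library were 220 for Lhx5, 210 for Lhx2, 131 for Fezf2, 93 for Emx2 and 29 for Hesx1, against 32 for Six6, 25 for Six3, 9 for Rax and 6 for Nkx2-1. All values of the 9 genes that came from under 20 reads, 109 of 109, were whole numbers of reads within 0.1 read.

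**Figure D1:**
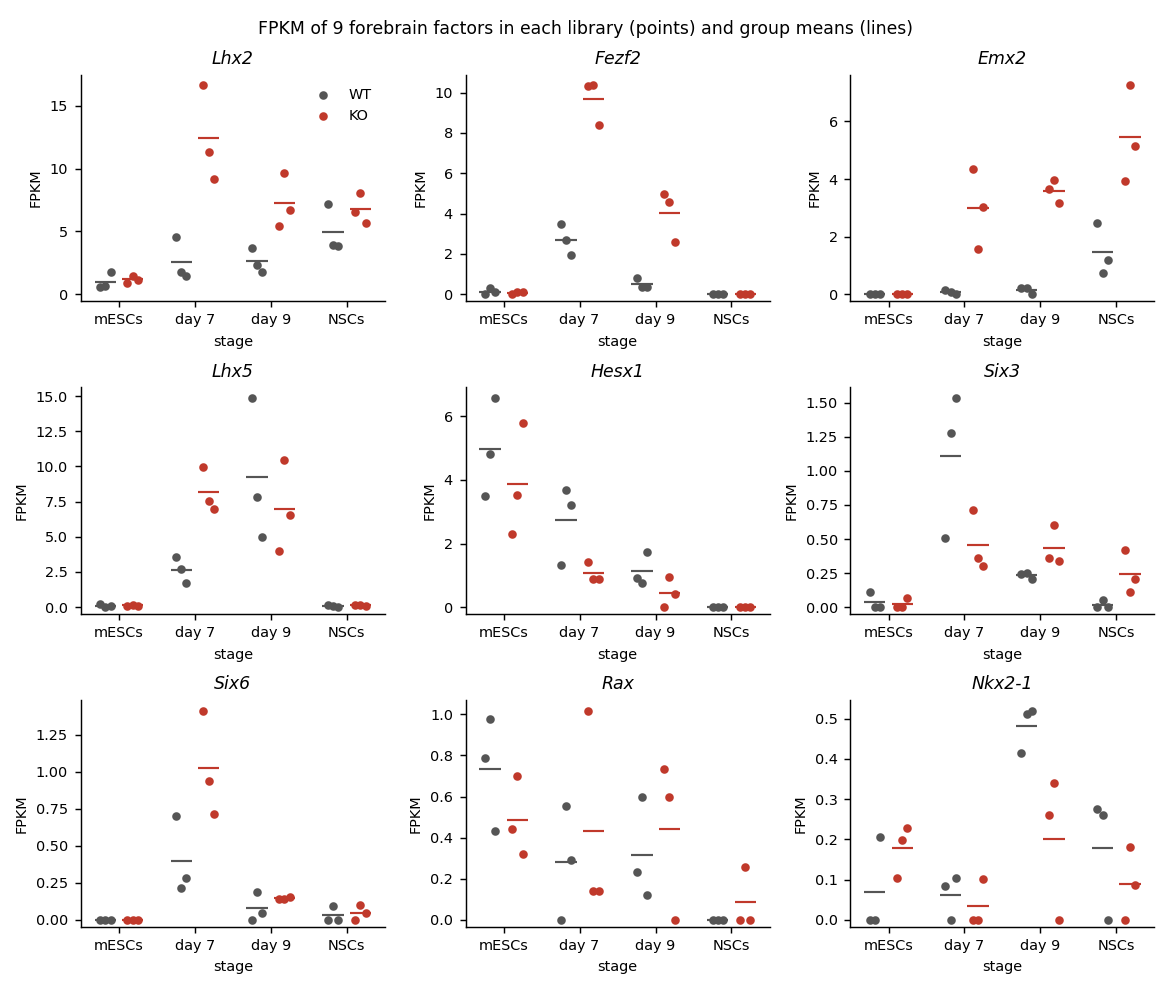
FPKM of each of the 9 forebrain factors (linear vertical axes, each with its own scale) in the 24 libraries, by stage and genotype; each point is 1 library, grey for WT and red for KO, and each line is a group mean. Lhx2, Fezf2 and Emx2 lie higher in the KO libraries at day 7 and day 9, Emx2 also in NSCs, and Six3, Six6, Rax and Nkx2-1 stay below 1.6 FPKM throughout.

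The sequences shown here lie just upstream of the 3 members that were higher in every KO library than in every WT library at both day 7 and day 9. Each is the 250 bases before the transcription start in the deposited table, 5′ to 3′ on the gene's strand, read from the NCBIM37 (mm9) genome, with CpG dinucleotides in capitals. No annotated exon of the gene itself overlaps its window. Of the Emx2 window, 196 bases lie in an exon of Emx2os, a noncoding gene on the opposite strand, and no other annotated gene overlaps the 3 windows.
Lhx2, chr2:38206578-38206827, plus strand: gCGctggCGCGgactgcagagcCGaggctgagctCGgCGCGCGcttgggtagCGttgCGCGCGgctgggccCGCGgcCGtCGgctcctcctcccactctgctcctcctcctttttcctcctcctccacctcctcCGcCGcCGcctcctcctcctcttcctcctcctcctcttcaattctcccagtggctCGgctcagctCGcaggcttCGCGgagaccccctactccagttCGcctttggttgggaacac
Fezf2, chr14:13178380-13178629, minus strand: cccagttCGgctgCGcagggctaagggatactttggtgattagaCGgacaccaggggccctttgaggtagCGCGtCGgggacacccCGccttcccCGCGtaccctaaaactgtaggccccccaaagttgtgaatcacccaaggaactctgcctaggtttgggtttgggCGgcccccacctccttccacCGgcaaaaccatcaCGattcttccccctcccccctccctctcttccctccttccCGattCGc
Emx2, chr19:59532930-59533179, plus strand: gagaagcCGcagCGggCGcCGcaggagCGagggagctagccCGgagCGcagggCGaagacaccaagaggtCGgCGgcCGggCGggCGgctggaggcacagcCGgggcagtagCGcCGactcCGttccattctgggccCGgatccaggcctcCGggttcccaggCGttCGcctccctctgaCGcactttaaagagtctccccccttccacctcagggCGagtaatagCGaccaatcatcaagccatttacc
The windows of Lhx2 and Emx2 hold 24 CpG dinucleotides each and that of Fezf2 holds 14. Over 17007 windows of the same length upstream of other listed genes the median was 13, and 19.5% held at least 24. The GC content was 68.4% for Lhx2, 67.2% for Emx2 and 61.2% for Fezf2, with a median of 58.0% over all windows. The TCF/LEF core CTTTGA, searched on both strands, occurs once upstream of Fezf2 and is not in the other 2 windows, and 11.3% of all windows hold it. The homeodomain core TAATTA and the TATA box TATAAA are in none of the 3, against 2.93% and 8.62% of all windows. These matches describe letters and are not evidence of binding.

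Lhx2 (chr2:38206828-38225248), a LIM-homeodomain factor needed for the eye and the cortex, was detected in every library. In WT mESCs its FPKM was 0.553, 0.688 and 1.73, and in WT day 7 cells 1.44, 1.75 and 4.54. WT day 9 cells held 1.80, 2.36 and 3.70, and WT NSCs 3.81, 3.94 and 7.20. The WT groups of day 7 and day 9 covered nearly the same range, mESCs overlapped with day 7, and NSCs lay wholly above mESCs. KO mESCs held 0.933, 1.13 and 1.48, and KO day 7 cells 9.16, 11.4 and 16.7. KO day 9 cells held 5.43, 6.71 and 9.69, and KO NSCs 5.67, 6.53 and 8.08. The order of the group means was thus KO day 7, KO day 9, KO NSCs and WT NSCs, then WT day 9, WT day 7 and the mESCs, and each neighbour in this order overlapped with the next except WT NSCs with WT day 9.

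Fezf2 (chr14:13174406-13178379), a zinc finger factor, was a gene of the day 7 cells. Its FPKM in mESCs was 0, 0.101 and 0.292 in WT and 0, 0.0978 and 0.112 in KO. At day 7 WT libraries held 1.93, 2.70 and 3.50 and KO libraries 8.39, 10.3 and 10.4. At day 9 WT libraries held 0.334, 0.340 and 0.815 and KO libraries 2.59, 4.60 and 4.95. No read of it was found in any of the 6 NSC libraries. The KO libraries lay above the WT libraries at both days, and in both genotypes day 9 lay below day 7 without overlap.

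Emx2 (chr19:59533180-59539847), a homeodomain factor of the dorsal telencephalon, was at 0 in the 6 mESC libraries. In WT cells it had 2, 1 and 0 reads in replicates 1, 2 and 3 at day 7 and 3, 3 and 0 reads at day 9, or at most 0.220 FPKM. The KO libraries held 1.56, 3.03 and 4.36 FPKM at day 7 and 3.16, 3.67 and 3.96 FPKM at day 9. In NSCs both genotypes expressed it, at 0.745, 1.18 and 2.46 FPKM in WT and at 3.93, 5.16 and 7.27 FPKM in KO. Of the 9 genes it was the one in which the KO libraries lay above the WT libraries at day 7, at day 9 and in NSCs alike.

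Lhx5 (chr5:120881895-120891466), a LIM-homeodomain factor of the forebrain and spinal cord, had at most 0.227 FPKM in mESCs and 0.165 FPKM in NSCs. Its WT values were 1.69, 2.72 and 3.53 FPKM at day 7 and 5.002, 7.82 and 14.9 FPKM at day 9. Its KO values were 6.96, 7.55 and 9.94 FPKM at day 7 and 3.97, 6.52 and 10.5 FPKM at day 9. The KO libraries were higher at day 7, and at day 9 the genotypes overlapped.

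Hesx1 (chr14:27813548-27815511), a homeodomain repressor of the anterior neural plate and the pituitary, ran the other way and was highest in mESCs. Its FPKM in mESCs was 3.49, 4.82 and 6.58 in WT and 2.31, 3.52 and 5.80 in KO. It was 1.31, 3.20 and 3.69 at day 7 in WT and 0.888, 0.890 and 1.42 in KO. At day 9 it was 0.7504, 0.916 and 1.72 in WT and 0, 0.416 and 0.939 in KO, and no NSC library held a read. The genotypes overlapped at every stage at which it was detected.

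The remaining 4 genes stayed low. Six3 (chr17:86020174-86025531), a homeodomain factor that represses Wnt genes in the anterior neural plate, was at 0.504, 1.28 and 1.54 FPKM in WT and 0.298, 0.359 and 0.715 FPKM in KO at day 7, groups that overlapped. At day 9 it was at 0.205, 0.246 and 0.252 FPKM in WT and 0.335, 0.361 and 0.606 FPKM in KO, where KO lay above WT. Its mean was thus lower in KO at day 7 and higher at day 9. In NSCs it had 13 reads over the 3 KO libraries and 1 read over the 3 WT libraries.

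Six6 (chr12:74040932-74045886), its relative in the retina and pituitary, was absent from the reads of all mESC libraries. At day 7 it reached 0.216, 0.285 and 0.701 FPKM in WT and 0.718, 0.941 and 1.41 FPKM in KO, without overlap but with neighbouring libraries close. At day 9 its highest value was 0.187 FPKM. Rax (chr18:66094293-66098743), the retina and anterior neural fold homeobox factor, had at most 9 reads in a library and its WT and KO groups overlapped at every stage. Nkx2-1 (chr12:57632924-57637895), a factor of the hypothalamus and the ventral telencephalon, was at 0.416, 0.511 and 0.520 FPKM in WT and at 0, 0.261 and 0.341 FPKM in KO at day 9, 17 against 7 reads, and was the only member lower in every KO library than in every WT library at any stage.

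The first tested comparison asked which of the factors came on as WT mESCs differentiated to day 7. Lhx5 rose and Hesx1 fell. Lhx5 went up by 1.70 ± 0.28 (SE) on the log2(FPKM + 1) scale, from 0.104 to 2.65 FPKM (adjusted p = 2.39e-05, limma, Benjamini-Hochberg over 12105 genes, 3 libraries per group). Hesx1 fell by 0.71 ± 0.28 (adjusted p = 0.0358, limma). In the fit with no limit on low values Emx2, with at most 2 reads in these libraries, did not pass (0.10 ± 0.24, adjusted p = 0.782, limma). Beside these, 29.1% of all tested genes rose and 30.2% fell. The Hesx1 call was lost with only the 2 groups compared, without WT mESCs replicate 2 or 3 or WT day 7 replicate 1, with a pseudocount of 0.1 and after scaling to the same FPKM sum, and its adjusted p over all alternatives ran from 0.0168 to 0.249. Fezf2 and Lhx2, the genes of the choice, differed by 1.70 ± 0.19 (2.71 against 0.131 FPKM) and 0.79 ± 0.30 (2.58 against 0.991 FPKM), without a test.

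From day 7 to day 9 in WT cells, Lhx5 rose by 1.40 ± 0.28 (adjusted p = 0.000578, limma), from 2.65 to 9.23 FPKM. Fezf2, given without a test, was at 2.71 and then 0.496 FPKM (-1.30 ± 0.19), and Lhx2 differed by 0.08 ± 0.30. Hesx1 fell by 0.77 ± 0.28 (adjusted p = 0.0385, limma), a call that 4 of the 6 fits without 1 library lost, those without WT day 7 replicate 2 or 3 or WT day 9 replicate 1 or 2. It was also lost with a pseudocount of 0.1, without the limit on low values, with only the 2 groups compared and after scaling to the same FPKM sum, with an adjusted p between 0.00676 and 0.175 over all alternatives. Emx2, with at most 3 reads in these libraries, did not pass in the fit with no limit (0.08 ± 0.24, adjusted p = 0.886, limma). Among all tested genes, 18.5% rose and 15.3% fell.

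WT NSCs, set against WT mESCs, expressed Lhx2 and Emx2 and lacked Hesx1 and Fezf2. Lhx2, given without a test, was at 4.99 against 0.991 FPKM (1.59 ± 0.30). Emx2 was 1.24 ± 0.24 higher in the fit with no limit on low values (adjusted p = 0.000115, limma). As the mESC libraries held no read of Emx2, its mean was at least 5.75-fold higher in NSCs, with 3 reads per library taken as the floor. Hesx1 was 2.54 ± 0.28 lower (adjusted p = 4.03e-08, limma), or at least 8.51-fold by the same floor. Fezf2 and Lhx5 had at most 3 reads in any library of these groups, and Lhx5 did not pass (adjusted p = 0.915, limma). In this comparison 36.9% of tested genes were higher and 38.3% lower in NSCs.

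In KO cells the members are described between stages without a test, because the KO libraries on which Lhx2 and Fezf2 were selected enter these steps. From mESCs to day 7 the difference was 3.32 ± 0.19 for Fezf2, 3.03 ± 0.28 for Lhx5, 2.59 ± 0.30 for Lhx2 and 1.93 ± 0.24 for Emx2, and -1.19 ± 0.28 for Hesx1. Emx2 was at least 10.9-fold higher than in KO mESCs, and Lhx2 10.5-fold. Of all tested genes 29.5% rose and 31.8% fell.

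From day 7 to day 9 in KO cells the difference was -1.11 ± 0.19 for Fezf2, with 9.70 FPKM at day 7 and 4.05 FPKM at day 9. Lhx2 had a lower mean at day 9, 7.28 against 12.4 FPKM (-0.69 ± 0.30). Lhx5, which rose in WT cells over these 2 days, went from 8.15 to 6.98 FPKM in KO cells (-0.27 ± 0.28). Emx2 and Hesx1 gave 0.27 ± 0.24 and -0.55 ± 0.28. In this step 17.2% of tested genes rose and 13.4% fell. Whether the steps differed between the genotypes was not tested, because that difference contains the contrast that chose the members.

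Between KO NSCs and KO mESCs the difference was 2.66 ± 0.24 for Emx2, at least 19.9-fold, and 1.83 ± 0.30 for Lhx2, with 6.76 against 1.18 FPKM. Hesx1 was at -2.22 ± 0.28, at least 6.30-fold lower. Among all tested genes 37.7% were higher and 38.2% lower in KO NSCs. The WT and KO NSC protocols each began from mESCs.

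The 4 low genes also had called changes between stages of WT cells when the limit on low values was removed. Without that limit, 8507 of 18156 genes were called in either direction at day 7 against mESCs. At day 9 against day 7 it was 4674 genes, and in NSCs against mESCs 10943. In the same fit Six3 rose from WT mESCs to day 7 by 0.99 ± 0.14 (adjusted p = 8.61e-06, limma) and fell to day 9 by 0.74 ± 0.14 (adjusted p = 0.000657, limma). Six6 rose to day 7 and fell to day 9 in WT cells, with an adjusted p of 0.00136 and 0.0178 (limma). Nkx2-1 rose from day 7 to day 9 in WT cells by 0.48 ± 0.11 (adjusted p = 0.00216, limma). In KO cells the same step gave 0.21 ± 0.11. Rax was lower in WT NSCs than in WT mESCs (-0.78 ± 0.22, adjusted p = 0.00475, limma). In WT cells Six3 and Six6 were thus higher at day 7 than at both mESCs and day 9, with at most 25 reads in a WT library for Six3 and 15 for Six6.

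**Figure D2:**
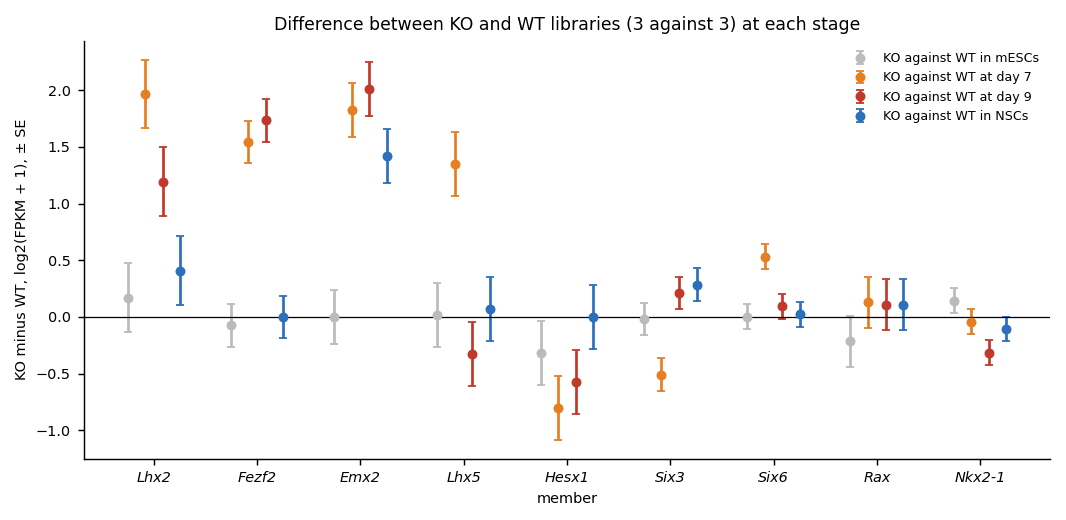
Difference between the means of 3 KO and 3 WT libraries on the log2(FPKM + 1) scale (vertical axis) for each of the 9 genes (horizontal axis) at each of the 4 stages (colours); bars are standard errors from the limma fits. At day 7 Lhx2, Emx2, Fezf2 and Lhx5 lie between 1.35 and 1.97, at day 9 Lhx5 lies at -0.32, and in mESCs all 9 lie between -0.32 and 0.17.

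Set side by side, KO and WT mESCs showed no member whose libraries were separate. The differences, KO minus WT, ran from -0.32 for Hesx1 to 0.17 for Lhx2, with a median of 0.00 over the 9 genes. Over 18156 genes off the sex chromosomes with a value above 0, the KO libraries lay wholly above the WT libraries in 4.08% and wholly below in 5.14% at this stage. These shares are the background for the counts of separate groups, and as the members were chosen on this contrast nothing is read from the comparison.

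At day 7, 5 of the 9 genes were higher in every KO library than in every WT library, where 8.92% of all genes were higher and 10.9% lower in this way. They were Lhx2 (1.97 ± 0.30 higher in KO on the log2(FPKM + 1) scale, 12.4 against 2.58 FPKM), Emx2 (1.83 ± 0.24), Fezf2 (1.54 ± 0.19, 9.70 against 2.71 FPKM), Lhx5 (1.35 ± 0.28, 8.15 against 2.65 FPKM) and Six6 (0.53 ± 0.11). For Emx2 the 116 reads of the KO libraries stood against 3 of the WT libraries, a ratio of 37.8 per unit of depth with a 95% exact (Clopper-Pearson) interval of 12.6 to 186, which covers counting error only. Hesx1 (-0.80 ± 0.28) and Six3 (-0.51 ± 0.14) had lower means in KO with overlapping libraries, and Rax (0.13 ± 0.22) and Nkx2-1 (-0.04 ± 0.11) differed by less than their errors. The median over the 9 genes was 0.53, beside 0.00 over all tested genes. Without WT day 7 replicate 1, which held the highest WT values of Lhx2, Fezf2, Lhx5 and Six6, the differences were 2.33 for Lhx2, 1.69 for Fezf2 and 1.52 for Lhx5, and without WT day 7 replicate 3 they were 1.74, 1.38 and 1.14, the lowest with 1 library left out. In bulk RNA, more cells that express a factor and more RNA per cell cannot be told apart.

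At day 9, 4 of the 9 genes were higher in every KO library and 1 lower, beside 12.2% and 13.9% of all genes. Emx2 was 2.01 ± 0.24 higher, with 142 reads against 6 and a ratio of 24.7 (95% exact interval 11.1 to 68.5, counting error only). Fezf2 was 1.73 ± 0.19 higher, 4.05 against 0.496 FPKM, and Lhx2 was 1.195 ± 0.302 higher, 7.28 against 2.62 FPKM. Six3 was 0.21 ± 0.14 higher and Nkx2-1 0.31 ± 0.11 lower, both on few reads. Lhx5, separate at day 7, had its higher mean in WT at day 9 (-0.32 ± 0.28 for KO minus WT), with overlapping libraries, and the sign turned without WT day 9 replicate 1 (0.05). The median over the members was 0.11.

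In NSCs, 2 of the 9 genes were higher in every KO library and none lower, beside 7.06% and 6.59% of all genes. Emx2 was 1.42 ± 0.24 higher, 5.45 against 1.46 FPKM. Six3 was 0.28 ± 0.14 higher on 13 reads against 1, a ratio of 13.7 with a 95% exact interval of 2.05 to 581. Lhx2, at 6.76 in KO and 4.99 FPKM in WT, overlapped (0.41 ± 0.30). The larger differences of Lhx2 and Fezf2 at day 7 and day 9 were thus not seen in NSCs, where Fezf2 was at 0 in both genotypes. WT NSCs replicate 1 held the highest WT value of Lhx2 and Emx2, and without it their differences were 0.66 and 1.69. The lowest with 1 library left out were 0.27 for Lhx2, without WT NSCs replicate 3, and 1.2 for Emx2, without WT NSCs replicate 2.

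How alike the tested members ran over the 24 libraries differed from pair to pair. Pearson's r on the log2 scale was 0.855 for Lhx2 with Emx2 and 0.763 for Fezf2 with Lhx5, the highest of the 10 pairs. It was 0.584 for Lhx2 with Fezf2, 0.159 for Emx2 with Lhx5, and -0.744 for Emx2 with Hesx1, the lowest. Among all tested genes, Gm5796 (0.868), Emx2 (0.855) and AI314180 (0.851) were most like Lhx2, and Gdf10 (0.964), Hes3 (0.948) and Tal2 (0.942) were most like Fezf2. Hes3 is a repressor of neural progenitors and Tal2 a factor of the midbrain. The gene most like Emx2 was Gm5796 (0.877), the one most like Lhx5 was Mdm1 (0.962) and the one most like Hesx1 was Rybp (0.939). These values describe 24 libraries that share 8 groups, and most of the variation lies between stages.

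The other genes of forebrain and neural tube patterning were compared between KO and WT with a test, as they were no part of the choice of members, although their lists too were drawn up with earlier results known. Of 63 genes in 5 lists, 42 passed the limit on low values. At day 7, 8 of the 42 were higher and 7 lower in KO, beside 1.18% and 2.5% of all tested genes. At day 9, 10 were higher and 6 lower, beside 2.58% and 4.11%. In NSCs, 3 were higher and 6 lower, beside 2.54% and 3.48%, and in mESCs 1 was higher and none lower by limma, beside 0.116% and 0.413% (4 were higher and 1 lower at an unadjusted p under 0.05). With replicates of equal number taken as a block, the genes called over the whole table went from 64 to 98 in mESCs and from 729 to 1145 in NSCs. Genes named beyond the largest rise and fall of each list were added after their values were seen.

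Of 12 telencephalon factors, 2 were tested, and neither passed in any of the 4 comparisons by limma. At an unadjusted p under 0.05 both differed at day 7, 1 in NSCs and 0 in mESCs and at day 9. Sp8, a zinc finger factor of the anterior forebrain, was at 12.3 in KO and 8.12 FPKM in WT at day 7 (0.56 ± 0.22, adjusted p = 0.228, limma). Nr2f1, a nuclear receptor of cortical patterning, was at 30.7 and 40.01 FPKM (-0.40 ± 0.18, adjusted p = 0.307, limma). The other 10 genes of that list stayed below the limit on low values. Of these 10, 4 were nevertheless higher in every KO library than in every WT library at day 9, beside 12.2% of all genes. Emx1, a cortical homeobox factor, was at 1.00, 1.63 and 1.66 FPKM in KO and 0, 0 and 0.176 FPKM in WT, and Nr2e1, a nuclear receptor of forebrain progenitors, was at 1.35, 2.07 and 2.32 FPKM in KO and 0.116, 0.118 and 0.678 FPKM in WT. Gsx2 (0.954 against 0.356 FPKM) and Tbr1 (0.546 against 0.124 FPKM) were the others, and Dlx1 overlapped. The median over the 2 tested genes was 0.08 on day 7, 0.17 on day 9 and -0.27 for NSCs.

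Of the eye field and diencephalon factors, 7 of 13 were tested. Mab21l2, which acts in the eye and the midbrain, was higher in KO at day 7 (1.10 ± 0.22, adjusted p = 0.00297, limma) and at day 9 (1.54 ± 0.22, adjusted p = 5.25e-05, limma). Pax6 was higher at day 9 (63.7 against 36.8 FPKM, adjusted p = 0.0368, limma) with overlapping libraries, and the call was lost in 4 of the 6 fits without 1 library (WT or KO day 9 replicate 2 or 3), with a pseudocount of 0.1, with only the 2 groups and after scaling (adjusted p from 0.00218 to 0.269 over all alternatives). Foxd1 was lower in KO at that day, at 0.901 against 8.55 FPKM (-2.34 ± 0.32, adjusted p = 3.5e-05, limma) and so was Otp, a hypothalamic factor, at 4.06 against 12.2 FPKM (adjusted p = 0.0123, limma). The Otp call was lost without replicate 1 of either genotype, with a pseudocount of 0.1, with only the 2 groups and with the replicate block (adjusted p from 0.000625 to 0.262 over all alternatives). In NSCs the ventral eye factor Vax2 was higher in KO (2.14 ± 0.35, 15.2 against 2.75 FPKM, adjusted p = 0.000497, limma), and Mab21l2 was listed at 0 in the 3 KO libraries against 0.353 to 1.14 FPKM in WT. That last call (adjusted p = 0.0478, limma) was lost in 5 of the 6 fits without 1 library, all but the one without WT NSCs replicate 3, and also without the limit on low values and with only the 2 groups compared. The median over the 7 genes was -0.18 on day 7, -0.06 on day 9 and -0.21 for NSCs.

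Of the 8 tested genes of the anterior neural plate and its signals, 3 were higher and 2 lower in KO at day 7, and 4 were higher and 2 lower at day 9. At day 7 Otx2, the head organizer and forebrain-midbrain factor, stood at 41.7, 55.5 and 67.6 FPKM in KO and 12.3, 15.5 and 17.1 FPKM in WT (1.79 ± 0.27, adjusted p = 0.000187, limma). The Wnt antagonist Frzb was higher too (0.92 ± 0.17, adjusted p = 0.00153, limma), a call lost with a pseudocount of 0.1 (adjusted p = 0.0525, limma). Wnt8b, given without a test, was 1.51 ± 0.17 higher, at 2.42 in KO against 0.181 FPKM in WT. Shh, the ventral signal that induces Nkx2-1, was at 0.0672, 0.168 and 0.169 FPKM in KO and 4.27, 21.0 and 24.2 FPKM in WT (-3.66 ± 0.47, adjusted p = 4.74e-05, limma). The Wnt antagonist Dkk1, given without a test, was lower as well (0.727 against 15.4 FPKM, -3.08 ± 0.32). Frzb and Dkk1, both Wnt antagonists, were thus changed in opposite directions at day 7.

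At day 9 Wnt8b, given without a test, was the largest rise of this list (2.86 ± 0.17). It was at 5.57, 5.92 and 8.82 FPKM in KO and 0.0540, 0.0553 and 0.0562 FPKM in WT. Frzb, Fgf15 and Otx2 were higher by 1.71 ± 0.17, 1.53 ± 0.23 and 1.41 ± 0.27 (adjusted p = 4.94e-07, 9.47e-05 and 0.0014, limma). Shh (4.63 against 32.1 FPKM, -2.85 ± 0.47, adjusted p = 0.000423, limma) and Sfrp1 (52.5 against 187.6 FPKM, -1.98 ± 0.29, adjusted p = 9.51e-05, limma) were lower. The Shh and Sfrp1 calls were lost when only the 2 groups compared were fitted, where their adjusted p was 0.0767 and 0.0574 (limma), and that of Otx2 with a pseudocount of 0.1 (0.101). The medians over the 8 tested genes were -0.12 at day 7 and 1.22 at day 9, and in NSCs Frzb alone passed, at 0.421 against 1.62 FPKM (-0.86 ± 0.17, adjusted p = 0.00263, limma), a call also lost with only the 2 groups (highest adjusted p 0.135, lowest 0.000342).

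The midbrain and posterior factors did not move as a block. At day 7 the midbrain-hindbrain genes En1 (14.9 against 0.498 FPKM, 3.26 ± 0.38), Wnt1 (11.6 against 0.376 FPKM, 3.00 ± 0.34) and Pax2 (4.42 against 0.847 FPKM, 1.52 ± 0.25) were higher in KO, with adjusted p of 1.36e-05, 8.59e-06 and 0.000489 (limma). The more posterior Cdx2 (0.221 against 5.13 FPKM, -2.33 ± 0.20), Hoxb1 (9.19 against 24.9 FPKM, -1.55 ± 0.31) and Hoxb2 (33.1 against 64.5 FPKM, -0.99 ± 0.26) were lower, with adjusted p of 1.03e-07, 0.00359 and 0.0359 (limma). With only the 2 groups compared the Hoxb1 and Hoxb2 calls were lost (0.206 and 0.115), and that of Hoxb2 also with a pseudocount of 0.1 and without WT day 7 replicate 2 or 3 or KO day 7 replicate 1 or 3. At day 9 Wnt1, Gbx2, En2 and Irx3 were higher by 2.71 ± 0.34, 1.71 ± 0.29, 1.63 ± 0.24 and 1.18 ± 0.22 (adjusted p = 1.45e-05, 0.000494, 8.49e-05 and 0.00108, limma), and Hoxb1 was lower by 1.47 (adjusted p = 0.00379, limma). In NSCs Hoxa2 (4.49 against 22.0 FPKM, -2.12 ± 0.25, adjusted p = 1.01e-05, limma), Hoxb2 (2.23 against 10.8 FPKM, -1.94 ± 0.26, adjusted p = 7.02e-05, limma) and Gbx2 (3.42 against 8.59 FPKM, -1.10 ± 0.29, adjusted p = 0.0256, limma) were lower. The Hoxb2 and Gbx2 calls were lost with only the 2 groups compared (0.0691 and 0.282), and that of Gbx2 also without WT NSCs replicate 1 or KO NSCs replicate 2 or 3. In mESCs Cdx2 was higher (19.2 against 7.04 FPKM, 1.30 ± 0.20, adjusted p = 0.00149, limma), a call lost with a pseudocount of 0.1 and with only the 2 groups (highest adjusted p 0.3, lowest 0.0012). The median over the 13 tested genes was -0.43 on day 7, 0.09 on day 9 and 0.00 for NSCs.

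Of 15 relatives and cofactors of the members, 12 were tested, among them Ldb1, the cofactor of LIM-homeodomain proteins, and 1 was higher and 2 lower in KO at day 7, none higher and 1 lower at day 9, and 2 higher and 1 lower in NSCs. At day 7 Lhx1, the closest relative of Lhx5, was at 0.244, 0.245 and 0.260 FPKM in KO and 4.45, 5.23 and 8.03 FPKM in WT (-2.43 ± 0.24, adjusted p = 1.15e-06, limma), the opposite direction to Lhx5. Lmx1a was lower as well (-1.92 ± 0.29, adjusted p = 0.000265, limma, 0.0534 with only the 2 groups), and the Groucho corepressor Tle4 was higher (0.55 ± 0.15, adjusted p = 0.0337, limma), a call kept in only 1 of the 6 fits without 1 library, that without WT day 7 replicate 1, and lost after scaling to the same FPKM sum, with an adjusted p from 0.00778 to 0.203 over all alternatives. At day 9 Isl1 was at 1.27 against 29.3 FPKM (-3.84 ± 0.25, adjusted p = 9.05e-10, limma). In NSCs Tle2, another Groucho corepressor, was higher (0.97 ± 0.24, 26.6 against 13.5 FPKM, adjusted p = 0.0169, limma), a call lost with a pseudocount of 0.1, with only the 2 groups compared, without WT NSCs replicate 2 and without KO NSCs replicate 1 (adjusted p from 0.00149 to 0.285 over all alternatives). Six4 was higher too (0.69 ± 0.17, adjusted p = 0.0177, limma), a call lost with only the 2 groups (0.14) and without replicate 3 of either genotype, and Ldb2 was lower (-1.10 ± 0.23, adjusted p = 0.00412, limma, lost with only the 2 groups, where it was 0.207 in a range from 0.000632).

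**Figure D3:**
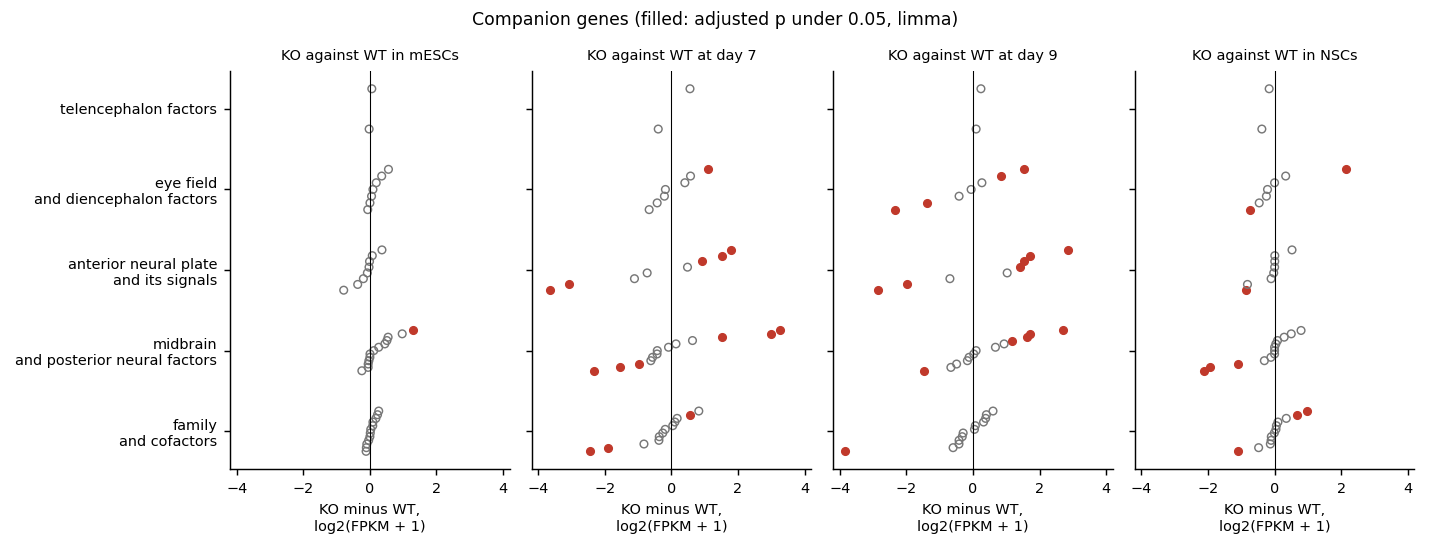
Difference between KO and WT on the log2(FPKM + 1) scale (horizontal axis) for the 42 tested companion genes, by list (vertical axis) and stage (panels); filled points have an adjusted p under 0.05 (limma). Points on both sides of 0 are filled at day 7 and day 9, with Shh at -3.66 and En1 at 3.26 at day 7, and 1 point is filled in mESCs.

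Some markers of other cell types also differed between KO and WT, while no pluripotency or neuron marker was called at any stage by limma. At day 7 T and Foxa2, of the 6 mesoderm and endoderm markers, were lower in KO (KO minus WT -5.26 ± 0.44 and -4.09 ± 0.40, adjusted p = 2.92e-07 and 1.39e-06, limma). Sox17, given without a test, was lower as well (-2.69 ± 0.27). Summed over the 6 markers, the level was 72.5, 172 and 184 FPKM in WT and 1.60, 2.52 and 3.50 FPKM in KO. Mesp1 was at 0 in all 3 KO libraries and at 0, 0.200 and 1.16 FPKM in WT, so its groups overlapped. At day 9 the sum was 39.97, 62.8 and 80.9 FPKM in WT and 5.11, 7.30 and 23.8 FPKM in KO. T and Foxa2 were lower there (adjusted p = 0.0157 and 7.1e-05, limma), calls lost with only the 2 groups (0.164 and 0.0584), and that of T also with a pseudocount of 0.1 and without replicate 3 of either genotype, WT day 9 replicate 2 or KO day 9 replicate 1. In NSCs the sum was 0.192, 0.544 and 0.824 FPKM in WT and 1.93, 2.12 and 4.199 FPKM in KO, higher in every KO library. Among the 6 neural progenitor markers Sox1 was higher in KO at day 7 (0.72 ± 0.19, adjusted p = 0.0336, limma) and at day 9 (0.74 ± 0.19, adjusted p = 0.0197, limma), and Pax6 at day 9 as given above. Vim was lower at day 7 (-0.71 ± 0.16, adjusted p = 0.00946, limma), and Sox2 and Vim were lower in KO NSCs (-0.49 ± 0.13 and -0.55 ± 0.16, adjusted p = 0.0308 and 0.0415, limma). Each of these 5 calls of Sox1, Vim and Sox2 was lost in 2 to 5 of its 6 fits without 1 library, and its highest adjusted p over all alternatives lay between 0.0894 and 0.427. The neuron markers summed to 50.3 in WT and 94.5 FPKM in KO at day 7 (medians) and to 418 and 289 FPKM at day 9. The WT library with the lowest marker sum at day 7, replicate 1, was the WT library with the most Lhx2, whereas at day 9 the KO library with the highest sum, replicate 2, was the KO library with the most Lhx2. The part of these markers in the differences of the members was not tested.

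**Figure D4:**
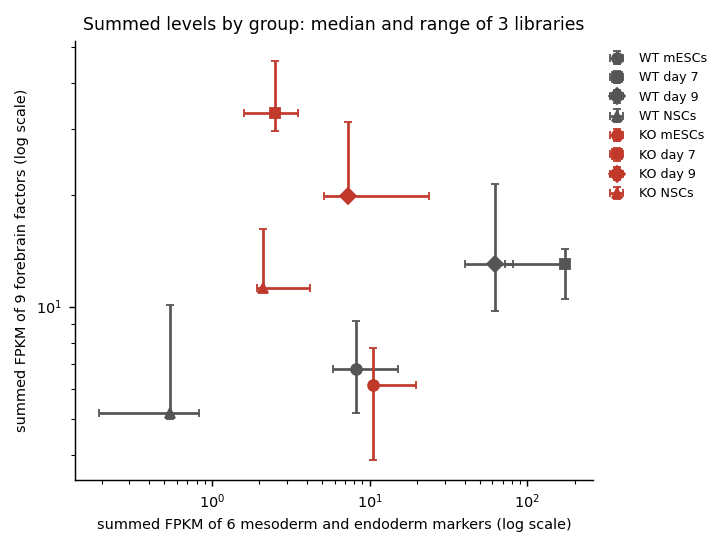
Summed FPKM of the 9 forebrain factors (vertical log axis) against summed FPKM of 6 mesoderm and endoderm markers (horizontal log axis) for the 8 groups; each symbol is the median of 3 libraries and the bars run from the lowest to the highest. KO day 7 lies at 33.2 and 2.52 and WT day 7 at 12.99 and 172, while the mESC groups lie together.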

How the data were processed

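Per the labels and the methods of the study, the authors made stranded poly(A) libraries, read them from 1 end, trimmed the reads with Trim Galore 0.6.6, aligned them to mm9 with TopHat2 2.1.1, discarded ribosomal and X-linked reads and estimated expression with Cuffdiff. The deposited unit is the authors' FPKM per gene and library. Whether reads were counted by strand is not given in the sources used here. Another 12 FPKM columns belong to samples outside the 24 and were not used. Of 23119 genes, 1024 lie on X or Y and are 0 throughout, and 1 had a failed estimate and was left out. The 18156 others with a value above 0 include 12105 with a mean of at least 1 FPKM, which were tested.

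Values were set to log2(FPKM + 1) and fitted with limma 3.58.1 in R 4.3.3 (all 24 libraries in 8 groups, moderated variances with trend and robust settings), and p was adjusted by Benjamini-Hochberg over the genes tested. An adjusted p under 0.05 was called. The code was tested on simulated data. P-values measure the spread between these replicates. The members and all lists were chosen with earlier results of these data known, and no test is given for a member between KO and WT or between stages of KO cells, or for Lhx2 and Fezf2 between stages. Emx2 and the 4 low members were tested between WT stages in the fit with no filter. The worth of 1 read came from 2798 low genes. A floor of 3 reads per library was used for bounds, and intervals on reads cover counting error only.

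Named genes were the 9 members, Smchd1, the largest called rise and fall of each companion list in each KO and WT comparison, the cell type markers, and the tested genes most correlated with each tested member (3 for Lhx2 and Fezf2). Some genes of the lists are not reported here. Replicate numbers paired KO with WT libraries in mESCs (correlations of deviations 0.289, 0.435 and 0.141) and in NSCs (0.335, 0.184 and 0.24), and not at day 7, at day 9 or between stages. Alternatives were a pseudocount of 0.1, no filter, only the 2 groups compared, scaling to the same FPKM sum (sums ran from 504572 to 802675), a replicate block and leaving out each library.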

Additional observations from a re-analysis of the deposited data

Results flagged for a closer look

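Listed here are tested companion and marker genes whose KO libraries lay wholly above the WT libraries at 1 stage and wholly below them at another. How many of all genes do so was not counted, so nothing is read from the number listed. The difference between the stages was not tested for any of the genes. Values are KO minus WT in log2(FPKM + 1), and the NSCs come from another protocol than the day 7 and day 9 cells.

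Gbx2 was higher in mESCs (0.97) and at day 9 (1.71) and lower in NSCs (-1.10). Frzb was higher at day 7 (0.92) and day 9 (1.71) and lower in NSCs (-0.86), and Mab21l2 was higher at day 7 (1.10) and day 9 (1.54) and lower in NSCs (-0.73). Tle4 gave 0.55 at day 7, 0.38 at day 9 and -0.48 in NSCs, and Fgf8 gave -1.11 at day 7, 1.03 at day 9 and 0.52 in NSCs. Between mESCs and day 7, Cdx2 went from 1.30 to -2.33, Cdx1 from 0.55 to -0.43 and Nr2f1 from 0.0576 to -0.40. Hoxa2 gave 0.67 at day 9 and -2.12 in NSCs, and Foxd1 gave -2.34 at day 9 and 0.33 in NSCs. Sp8 gave 0.56 and Tle2 -0.83 at day 7, with -0.16 and 0.97 in NSCs, and Mitf gave 0.56 in mESCs and -0.46 in NSCs. Several of these rest on low values at 1 of the stages. Nr2f1 in mESCs was at 0.197 in KO against 0.151 FPKM in WT. In NSCs Sp8 was at 0 against 0.125 FPKM and Foxd1 at 0.333 against 0.0561 FPKM.

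Of the markers, Foxa2 gave -4.09 at day 7, -2.85 at day 9 and 1.25 in NSCs. Sox1 gave -0.22 in mESCs, where it was at most 0.443 FPKM, 0.72 at day 7 and 0.74 at day 9. Between day 7 and day 9, Elavl3 went from 0.94 to -0.79, Tubb3 from 0.77 to -0.66 and Fgf4 from -0.32 to 0.36. Fabp7 gave 0.56 at day 9 and -0.45 in NSCs.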

How the results depend on the processing

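Of the members, Lhx5 and Hesx1 were tested between WT stages in the fit with a limit on low values. Both were called at day 7 against mESCs and at day 9 against day 7, and 1 was with a pseudocount of 0.1, with only the 2 groups and after scaling. In NSCs against mESCs 1 was called. Without a filter, which adds the 4 low genes, the counts without Emx2 were 4, 4 and 2, beside 8507, 4674 and 10943 of 18156 genes. Emx2, also tested in that fit, passed in NSCs against mESCs (adjusted p = 0.000115, limma) and not at day 7 or day 9. Genes called between KO and WT mESCs (64) were 164 without a filter, 1 with only the 2 groups, 42 after scaling and 98 with the replicate block, and companion genes called there (1) were 0 with a pseudocount of 0.1 and with only the 2 groups. At day 9, 809 genes became 1221 without a filter and 1377 with only the 2 groups, and 16 companion genes became 28 without a filter. In NSCs, 729 genes became 58 with only the 2 groups and 1145 with the replicate block, and 9 companion genes became 2 with only the 2 groups. The replicate block changed no other count by over 1.5 times. With a pseudocount of 0.1 the median over members, KO minus WT, was 1.24 at day 7, 0.61 at day 9 and 0.47 in NSCs. The cause of these changes was not tested. The filter, the groups fitted and the replicate block do not enter the medians over members, which are differences of group means over the 9 genes with no test.

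Leaving out 1 library, members called ranged from 1 to 2 at day 7 against mESCs and at day 9 against day 7 in WT cells. Genes called between KO and WT ranged from 20 to 112 in mESCs, 273 to 521 at day 7, 449 to 752 at day 9 and 406 to 1352 in NSCs. The lowest came without KO mESCs replicate 3, WT day 7 replicate 2, WT day 9 replicate 2 and KO NSCs replicate 3, and the highest without WT mESCs replicate 2, WT day 7 replicate 1, WT day 9 replicate 1 and WT NSCs replicate 1. The median over members had its limits at 0.0694 and 0.26 for day 9 and at 0.00 and 0.11 for NSCs. The uncalled change of Lhx5 between WT NSCs and mESCs turned sign in 2 fits without 1 library (range -0.106 to 0.0419). Of 671 values of single genes under alternatives, 564 kept direction and side of the threshold, 105 lost the call, 0 gained it and 2 turned sign.

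Scaling to the same FPKM sum moved the median of all genes by 0.20, 0.12 and 0.37 in the WT day 7, day 9 and NSC comparisons and by 0.18 and 0.44 in the KO day 7 and NSC comparisons. The share of calls that were higher then went from 49.1% to 66.4%, 54.6% to 72.2%, 49.1% to 66.2%, 48.1% to 63.3% and 49.7% to 68.3%, and between KO and WT it was 22.7% in place of 38.6% for day 9 and 54.2% in place of 42.2% for NSCs. No member changed direction, and the Hesx1 falls at day 7 and day 9 in WT lost their calls.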

Other observations

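Emx2os, a noncoding gene on the strand opposite to Emx2 that was chosen after its values were seen, was at 0.0431, 0.0861 and 0.309 FPKM in KO and at 0, 0 and 0.0364 FPKM in WT at day 7. At day 9 it was at 0.112, 0.121 and 0.146 FPKM in KO and at 0, 0 and 0.0355 FPKM in WT. Six3os1, beside Six3 and chosen in the same way, was at 0.6995, 0.764 and 1.23 FPKM in KO and at 0.169, 0.215 and 0.567 FPKM in WT at day 9. The KO libraries lay above the WT libraries in these 3 comparisons, and for Emx2os also in NSCs (0.434, 0.854 and 1.09 against 0.256, 0.259 and 0.315 FPKM). For Six3os1 they lay below in mESCs (0, 0 and 0.0420 against 0.0676, 0.100 and 0.112 FPKM) and overlapped at day 7 and in NSCs, as those of Emx2os did in mESCs. No test was made.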
